A study of Mus musculus with 3 samples.

Results

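The 10 MHC class II genes H2-Aa, H2-Ab1, H2-Eb1, Cd74, H2-DMa, H2-DMb1, H2-DMb2, H2-Oa, H2-Ob and Ciita were followed through mouse liver after irreversible electroporation (IRE), a local injury made by electric pulses that kill the cells between the electrodes. They were taken by symbol from a table of 19091 genes, and all 10 had counts in all 3 libraries. The counts come from Drop-seq, in which single cells are captured in droplets with barcoded beads and each transcript molecule is counted once through a unique molecular identifier (UMI). The libraries were made from C57BL/6 livers labelled as sham surgery with tissue taken after 1 day (control), as 1 day after IRE and as 7 days after IRE (1 and 7 days p.i.). The wound received 8 pulses of 50 ms at 75 V, 1 s apart, per the labels, and a 4 mm punch of it, or of the same uninjured area in control livers, was digested to single cells. Each library pooled 3 livers and stands alone for its condition, so that no difference between conditions could be set against a spread between animals, and no p-value is given.

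MHC class II molecules show peptides from endosomes to CD4+ T cells. The H2-A molecule pairs the chains of H2-Aa and H2-Ab1. H2-Eb1 encodes the beta chain of H2-E, whose alpha chain is not made in C57BL/6 mice, and the alpha chain gene was not analysed here. Cd74, the invariant chain, fills the peptide groove and takes new molecules to the endosome. There H2-DM, made of H2-DMa with a beta chain from H2-DMb1 or H2-DMb2, exchanges the last Cd74 fragment for peptide, and H2-DO, made of H2-Oa and H2-Ob, restrains H2-DM. Ciita is the coactivator that switches these genes on, and its own transcription responds to interferon gamma. Dendritic cells and B cells carry class II constitutively, whereas monocytes and macrophages, Kupffer cells of the liver among them, change it with their state.

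In the GENCODE M21 annotation of GRCm38, 8 of the genes lie on chromosome 17, in the order H2-Oa (chr17:34092340-34095234), H2-DMa (chr17:34119541-34139101), H2-DMb2 (chr17:34143307-34151555), H2-DMb1 (chr17:34153072-34160230), H2-Ob (chr17:34238903-34254414), H2-Ab1 (chr17:34257689-34269419), H2-Aa (chr17:34282744-34287823) and H2-Eb1 (chr17:34305867-34316674). H2-Aa alone of these is on the minus strand. Ciita lies on chromosome 16 (chr16:10480059-10528418, plus strand). These positions were looked up by symbol, since the build of the deposited counts is uncertain.

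Class II promoters are known for an X box, bound by the RFX complex, followed by a Y box, bound by NF-Y. Both were searched on both strands in RefSeq promoter windows of GRCm38.p6 (250 bases before to 50 after each start), as GCAAC for the core of the X1 box and ATTGG for the Y box. Neither motif contains the other. Of the 10 genes 7 matched, with 8 windows in all, which left out H2-Ab1, Cd74 and Ciita. The Y box letters stood in 7 of the 8 windows and the X1 letters in 5, against 37.4% and 35.2% of 32851 windows of all genes. In 4 windows, those of H2-Aa, H2-Eb1, H2-Oa and H2-Ob, the X1 letters were followed on the gene's strand by the Y letters after 25 to 28 bases. A forward pair 18 to 30 bases apart stood in 0.356% of all windows. These 4 are shown over 100 upstream bases, 5′ to 3′ on the gene's strand with every match in capitals, because they put both motifs of an A chain, an E chain and both DO chains side by side.
H2-Aa: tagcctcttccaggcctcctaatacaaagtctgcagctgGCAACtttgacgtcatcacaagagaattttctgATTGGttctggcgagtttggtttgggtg
H2-Eb1: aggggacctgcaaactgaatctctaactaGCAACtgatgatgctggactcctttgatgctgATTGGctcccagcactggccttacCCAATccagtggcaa
H2-Oa: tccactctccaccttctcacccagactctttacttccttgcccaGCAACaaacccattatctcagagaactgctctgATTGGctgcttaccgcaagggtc
H2-Ob: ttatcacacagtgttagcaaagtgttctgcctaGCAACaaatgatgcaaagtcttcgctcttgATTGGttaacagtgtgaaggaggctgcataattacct
The stretches are chr17:34287844-34287943 on the minus strand for H2-Aa, and on the plus strand chr17:34305747-34305846 for H2-Eb1, chr17:34092259-34092358 for H2-Oa and chr17:34238785-34238884 for H2-Ob. H2-Eb1 has a further Y box match on the opposite strand, read here as CCAAT. The windows of H2-DMb1 and H2-DMb2 held the Y letters without the X1 letters, and the pair of H2-DMa windows held 1 motif each. Only these exact letters were searched, so that a window without a match may still hold a variant of the box. A match is a description of letters and not of binding.

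The control library held 10386 cells (barcodes with at least 200 genes) with 8013800 UMIs, the library at 1 day p.i. 9253 cells with 6107866 and that at 7 days p.i. 5624 cells with 3058967, while the labels speak of cDNA from an estimated 1000 cells. Between libraries 1.91% of cells carried a barcode that was also found elsewhere. Mitochondrial genes took 20.5%, 21.7% and 4.10% of UMIs in control, at 1 day and at 7 days p.i. Cells were put into classes by gates, which use no class II gene. Most are rules on a list of at most 10 marker genes. The hepatocyte gate rests instead on the share of UMIs from a longer list. The makeup of the libraries stood far apart. Cells in the Ly6c2 monocyte gate made up 14.2% of the library labelled control, 0.983% of that labelled 1 day and 13.4% of that labelled 7 days. The neutrophil gate held 3.03%, 0.616% and 35.2% of cells, and the Kupffer cell gate 15.2%, 30.2% and 2.76%. The Gpnmb Trem2 macrophage gate held 8.87%, 0.875% and 1.97%, and the mesenchymal cell gate 4.11%, 0.0973% and 0.0356%. Transcripts of the hepatocyte list, which mark the labelled tissue, stood at 2067, 38988 and 399 CPM. CPM is the number of UMIs of a gene or list per 1000000 UMIs of all genes in the cells counted. The library labelled control thus held larger shares of cells in the monocyte and neutrophil gates than that labelled 1 day p.i., and no measurement used here other than the labels ties a library to its condition. Every ratio of 1 day p.i. to control below is that between the libraries so labelled, and it would be inverted if these labels were exchanged. Ratios of 7 days p.i. to control rest on the same label. After an exchange they would take the values of 7 days against 1 day. For the 10 genes together that is 0.878 in place of 0.456, and in the Kupffer gate 1.03 in place of 0.405. In bulk sums over a library, fewer cells of a class and less RNA per cell cannot be told apart, so that each gene is given over all cells first and then within gates.

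Over all cells, the class II transcripts were most abundant in the control library. The 10 genes together took 8207 CPM in control, with a 95% Poisson interval of 8144 to 8270. They took 4267 CPM at 1 day p.i., with 4215 to 4319, and 3745 CPM at 7 days p.i., with 3677 to 3815. The level was thus 0.520 of control at 1 day (interval of the ratio 0.512 to 0.527) and 0.456 at 7 days (0.447 to 0.466), and it was 0.878 at 7 days relative to 1 day (0.859 to 0.897). These intervals, and all below, cover counting error only and not the variation between livers. A gene was called changed at a ratio of at least 2 or at most 0.5, given at least 50 UMIs over both libraries. At 1 day p.i. 2 of the 10 genes fell by this rule and none rose, where 5.86% of 11357 genes fell and 12.2% rose. At 7 days p.i. 6 of 10 fell and none rose against control, where 21.8% of 10227 genes fell and 8.79% rose. Between 1 and 7 days 3 of 10 fell and none rose, where 27.8% of 10271 genes fell and 11.6% rose, so that the last count is near the share for all genes. The 3 were H2-DMb2 at 0.357 (0.247 to 0.504), H2-Oa at 0.333 (0.209 to 0.511) and H2-Ob at 0.174 (0.0954 to 0.295). The median log2 ratio of the 10 genes was −0.75, −1.21 and −0.23 in these comparisons, beside 0.04, −0.21 and −0.23 for all genes.

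The scale matters at 7 days p.i., because mitochondrial UMIs were so few there. With them left out of the total, the median of all genes shifted by −0.27 against control and by −0.30 against 1 day on the log2 scale, 28.9% of genes fell and 6.16% rose against control, and the summed class II level was 0.379 of control. With hepatocyte UMIs also left out, 36.7% of genes fell and 7.75% rose between 1 and 7 days.

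**Figure D1:**
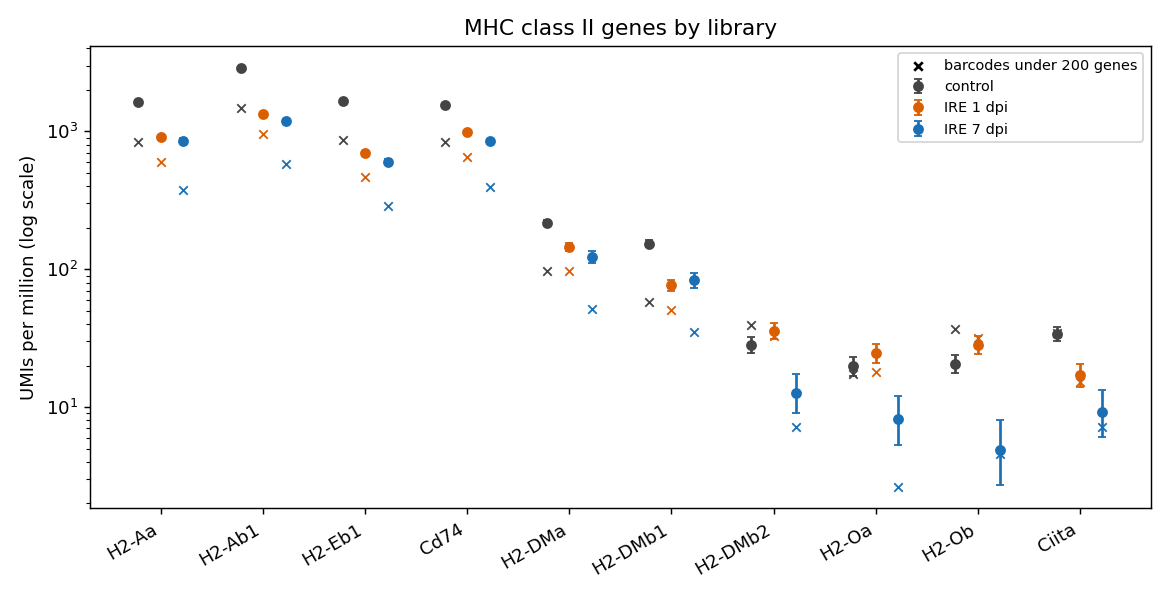
CPM (UMIs of the gene per 1000000 UMIs, log axis) of each MHC class II gene over all cells in the control, 1 day p.i. and 7 days p.i. libraries, with 95% Poisson intervals for counting error. The 4 abundant genes H2-Ab1, H2-Aa, H2-Eb1 and Cd74 are highest in control, whereas H2-DMb2, H2-Oa and H2-Ob are about level in control and at 1 day and drop at 7 days.

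A UMI counts 1 molecule of any length, but capture and mapping of reads may differ between genes, which was not tested. Among the chains of the class II molecules, H2-Ab1 had the most UMIs. It stood at 2897 CPM in control, 1340 at 1 day and 1190 at 7 days p.i., and it fell to 0.463 of control at 1 day (0.451 to 0.475) and 0.411 at 7 days (0.397 to 0.425). H2-Eb1 stood at 1651, 699 and 604 CPM, and fell to 0.424 of control at 1 day (0.409 to 0.439) and 0.366 at 7 days (0.348 to 0.384). These were the only members past the threshold at 1 day. H2-Aa, which started level with H2-Eb1 at 1627 CPM, stood at 916 and 859 p.i., or 0.563 of control (0.545 to 0.581) and 0.528 (0.506 to 0.550), and so did not pass. H2-Aa and H2-Ab1, whose products pair, thus changed by unequal amounts, with 0.562 H2-Aa UMIs per H2-Ab1 UMI in control (0.550 to 0.574), 0.683 at 1 day (0.660 to 0.707) and 0.722 at 7 days (0.686 to 0.759). H2-Eb2, a further beta chain gene of the locus, was rare, with 51, 42 and 5 UMIs, which is 1.08 of control at 1 day (0.701 to 1.66) and 0.257 at 7 days (0.0800 to 0.639).

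The invariant chain Cd74 stood at 1561 CPM in control, 983 at 1 day and 851 at 7 days p.i. Its ratios of 0.630 (0.611 to 0.649) and 0.545 (0.523 to 0.569) were nearer to 1 than those of the beta chains. H2-Ab1 counted 1.86 UMIs per Cd74 UMI in control (1.82 to 1.90), 1.36 at 1 day (1.32 to 1.41) and 1.40 at 7 days (1.33 to 1.47). For H2-Eb1 the value was 1.06 (1.03 to 1.08), 0.711 (0.684 to 0.740) and 0.709 (0.668 to 0.753). The fewer beta chain transcripts per Cd74 ran through most gates. H2-Ab1 per Cd74 was lower than in control in 9 of 11 gates at 1 day p.i., with intervals apart in 6, and in 6 of 6 at 7 days, with intervals apart in 4. H2-Eb1 per Cd74 was lower in 8 of 10 gates at 1 day, with intervals apart in 4, and in 6 of 6 at 7 days, with intervals apart in all 6. In the Kupffer gate H2-Ab1 per Cd74 was 1.68 (1.61 to 1.75) in control, 1.17 (1.10 to 1.24) at 1 day and 1.05 (0.837 to 1.33) at 7 days. In the cDC1 gate (dendritic cells, with Xcr1 among the markers) it was 2.47 (2.30 to 2.66) in control and 1.83 (1.64 to 2.04) at 1 day. The barcodes under 200 genes, which lie outside the counted cells, also had fewer H2-Ab1 UMIs p.i., with 1.78, 1.48 and 1.48 per Cd74 UMI. Gates of 1 library share its free RNA and its preparation, and the part of these in the ratio was not tested.

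**Figure D2:**
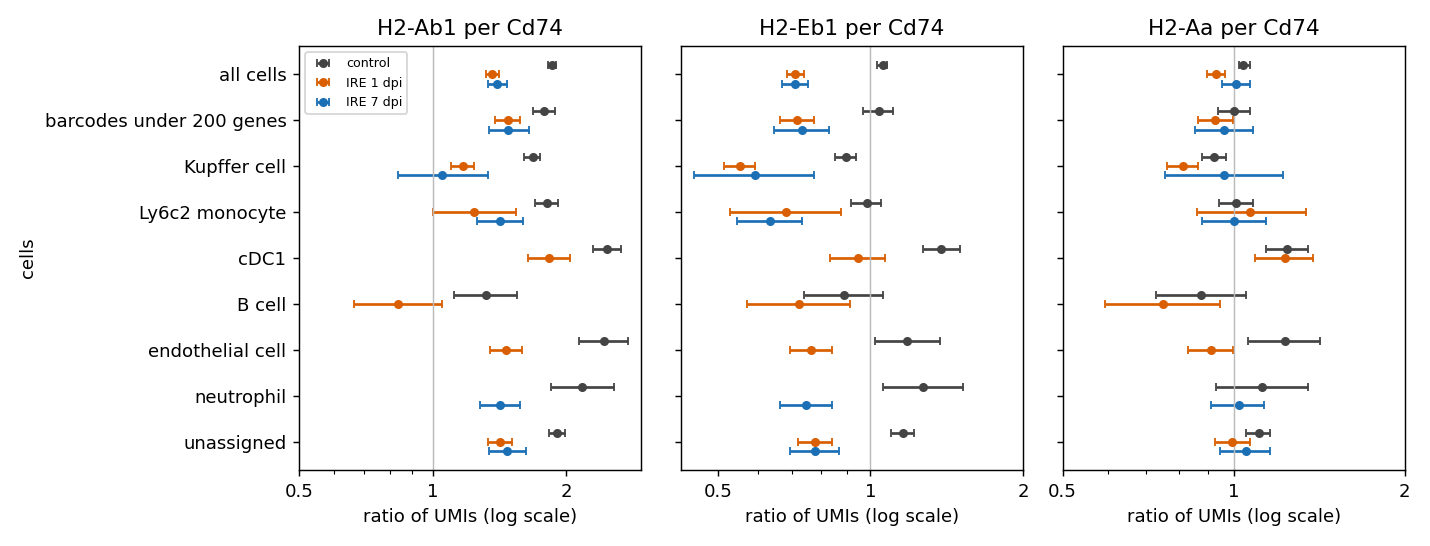
UMIs of H2-Ab1, H2-Eb1 and H2-Aa per UMI of Cd74 in the 3 libraries, for all cells, for barcodes under 200 genes and for gates, with 95% intervals for counting error. H2-Ab1 and H2-Eb1 per Cd74 are highest in control in most groups, whereas H2-Aa per Cd74 lies closer together.

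Of the peptide exchange genes, H2-DMa stood at 216, 146 and 123 CPM in control, at 1 day and at 7 days p.i., and H2-DMb1 at 153, 76.9 and 83.7. H2-DMb1 lay just outside the threshold at 1 day, at 0.504 of control (0.452 to 0.561). H2-DMb2 was rarer and was not lower at 1 day. It stood at 28.1 CPM in control and 35.7 at 1 day, a ratio of 1.27 (1.05 to 1.54), and it then fell to 12.7 at 7 days, which is 0.454 of control (0.315 to 0.640). The transcripts of both beta chain genes are alike, with 93.9% identity over 1255 aligned bases between their 201 isoforms, although the longest identical run in the last 400 bases, where the tags lie, was 28 bases. How well reads were split between them was not tested.

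The DO genes H2-Oa and H2-Ob also had their fewest UMIs at 7 days p.i. and were not lower at 1 day. H2-Oa had 159, 150 and 25 UMIs, which is 19.8, 24.6 and 8.17 CPM, and H2-Ob had 165, 172 and 15 UMIs, which is 20.6, 28.2 and 4.90 CPM. At 1 day p.i. H2-Oa was at 1.24 of control (0.984 to 1.56) and H2-Ob at 1.37 (1.10 to 1.70). At 7 days they fell to 0.412 (0.259 to 0.631) and 0.238 (0.130 to 0.404) of control. H2-DMb2 and H2-Ob were also richer outside the counted cells of the control library, with 1.41 (1.08 to 1.83) and 1.78 (1.33 to 2.36) times their level in cells among barcodes under 200 genes, where the 10 genes together reached only 0.523 (0.511 to 0.535). By gate in control, H2-Oa, H2-Ob and H2-DMb2 all stood higher in the B cell gate and in the cDC2 gate of dendritic cells than in Kupffer cells. In control H2-Ob stood at 219.8 CPM in the B cell gate (145 to 319.7, 27 UMIs) and 106 in cDC1 (67.6 to 157). It stood at 97.3 in cDC2 (35.7 to 212), a gate with Cd209a among its markers, and 13.9 in Kupffer cells (8.58 to 21.2). H2-Ob had no UMI in T cells, where a count of 0 allows up to 3 UMIs or 8.63 CPM. At 1 day p.i. it stood at 206 in B cells (119.9 to 329) and 193 in cDC1 (110.0 to 313), and both intervals overlap those of control. In control H2-DMb2 stood at 227 CPM in cDC2 (124 to 381), 179 in B cells (112 to 271), 82.5 in patrolling monocytes (4 UMIs), 70.4 in cDC1 and 23.8 in Kupffer cells. H2-Oa stood at 146 in cDC2 (66.7 to 277), 92.3 in cDC1 (57.2 to 141), 81.4 in B cells (39.0 to 149.7) and 9.25 in Kupffer cells. Much of what was counted at 1 day p.i. lay in other gates. Endothelial cells held 26.7% of the H2-Ob UMIs at 1 day (20.3 to 34.0) against 4.24% in control (1.72 to 8.55), and Kupffer cells 20.9% (15.1 to 27.8) against 12.7% (8.05 to 18.8). The endothelial gate itself went from 13.3% of cells in control to 32.2% at 1 day, and the Kupffer gate from 15.2% to 30.2%. The endothelial gate stood at 26.3 CPM of H2-Ob, 14.3 of H2-Oa and 33.2 of H2-DMb2 at 1 day, or 3.39 (1.52 to 8.90), 4.30 (1.31 to 22.2) and 2.49 (1.32 to 5.10) of control, and the barcodes under 200 genes of that library stood at 31.8, 17.9 and 32.6 CPM. These few UMIs leave the order of neighbouring gates within their intervals. B cells made up 1.98% of control cells and 13 cells at 7 days p.i., too few to enter (20 cells and 5000 UMIs were needed).

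Ciita, the coactivator, had 272, 104 and 28 UMIs, which is 33.9 CPM in control, 17.0 at 1 day and 9.15 at 7 days p.i. It lay just outside the threshold at 1 day, at 0.502 of control (0.396 to 0.631), and fell to 0.270 at 7 days (0.176 to 0.399). Its highest level in control was in cDC1, at 154 (107 to 214), followed by patrolling monocytes at 82.5 (22.5 to 211), and in cDC1 it stood at 144 (74.6 to 252) at 1 day. In the Ly6c2 monocyte gate it stood at 58.9 in control (44.5 to 76.5), 20.8 at 1 day (0.526 to 116, 1 UMI) and 4.51 at 7 days (0.546 to 16.3). In the Kupffer gate it was 21.8, 19.1 and 16.1, with overlapping intervals.

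Within gates of the control library, the summed genes were highest in dendritic cells. They stood at 34371 CPM in cDC2, 28605 in cDC1, 19280 in mature dendritic cells, 14925 in patrolling monocytes, 11196 in Kupffer cells, 9531 in B cells, 9527 in macrophages of the Arg1 Ccl2 gate, 8905 in Ly6c2 monocytes, 5926 in neutrophils, 5565 in plasmacytoid dendritic cells and 5415 in macrophages of the Gpnmb Trem2 gate. Neighbours in this order had intervals apart with 2 exceptions. The intervals of B cells, the Arg1 Ccl2 gate and Ly6c2 monocytes (8993 to 10093, 8867 to 10223 and 8716 to 9097) overlapped, as did that of plasmacytoid dendritic cells (4861 to 6342) with those of neutrophils and the Gpnmb Trem2 gate. Mature dendritic cells (49 cells) had high chain levels, with H2-Ab1 at 5074 CPM (4395 to 5828), but no UMI of H2-DMb1, which allows up to 76.1 CPM by the same limit, where cDC1 had 466 (382 to 564). The barcodes under 200 genes gave 4293 CPM in control, 2922 at 1 day and 1744 at 7 days. Endothelial cells, with 2441, 2575 and 903, and T cells, with 1876, 1687 and 418, lay below that level. So did the NK cell, hepatocyte, cholangiocyte, mesothelial, mesenchymal and plasma cell gates of control and the neutrophil gate at 1 day, with 2055. These gates are not told apart from background here. Yet 60 endothelial cells in control and 110 at 1 day had at least 1% of their UMIs from the 10 genes. Whether the barcodes under 200 genes hold shallow cells beside free RNA was not tested. Each gate level is a sum over cells of 1 library.

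**Figure D3:**
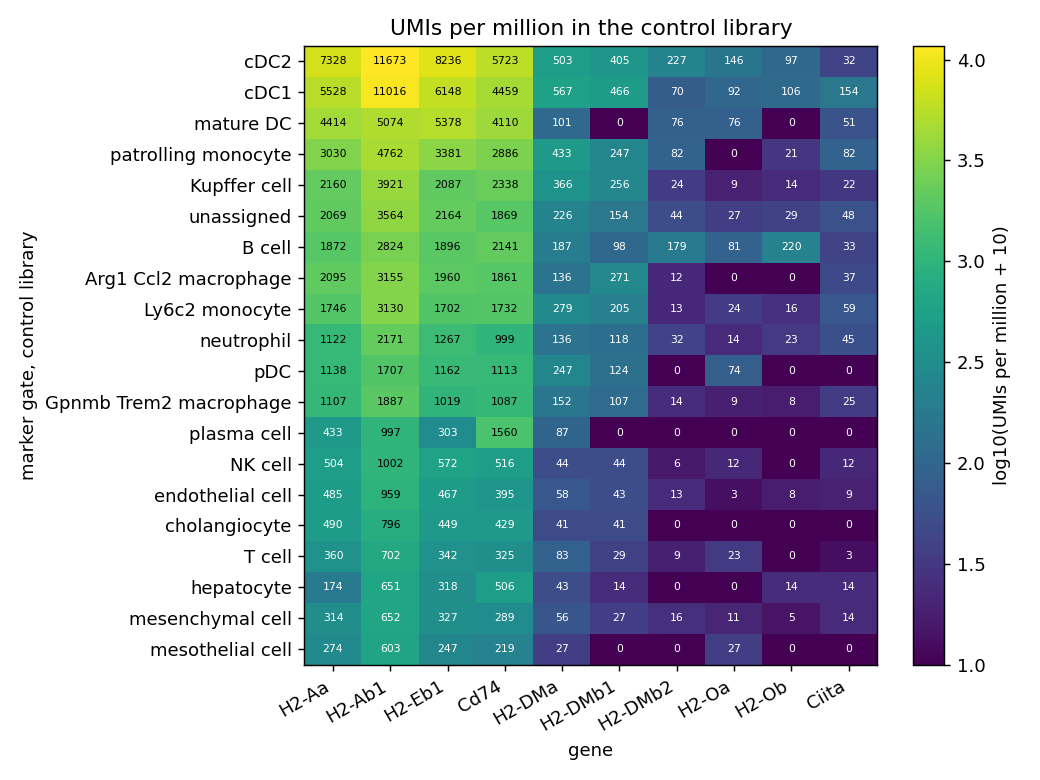
CPM of each MHC class II gene in each gate of the control library, printed in the cells and coloured by log10(CPM + 10). The cDC1, cDC2 and mature dendritic cell gates lead for the chains and Cd74. H2-Ob stands out in the B cell gate, and H2-DMb2 in the B cell and cDC2 gates, relative to their levels elsewhere.

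The class II level of Kupffer cells, the resident macrophages of the liver, was lower at both times p.i. than in the library labelled control. The summed level in their gate was 11196 CPM in control (1575 cells), 4415 at 1 day (2794 cells) and 4534 at 7 days p.i. (155 cells). The ratio to control was 0.394 at 1 day (0.384 to 0.405) and 0.405 at 7 days (0.372 to 0.440). The gate's median gene did not move this way, with a ratio of 0.966 at 1 day and 1.04 at 7 days. At 1 day 5 of the 9 members with 50 UMIs fell, where 3.47% of 6917 genes in the gate fell and 9.70% rose. At 7 days 4 of 6 fell, where 10.7% of 4270 fell and 7.56% rose. No member rose. H2-Eb1 went from 2087 CPM to 627 at 1 day and 707 at 7 days, H2-Ab1 from 3921 to 1325 and 1262, and H2-Aa from 2160 to 924 and 1150. Cd74 went from 2338 to 1136 and 1198, and H2-DMb1 from 256 to 106 and 56.3. At 1 day all 5 of these fell, whereas H2-DMa, at 366 in control and 215 at 1 day, did not pass the threshold. At 7 days H2-Ab1, H2-Eb1, H2-DMb1 and H2-DMa, the last at 145, fell, and Cd74 and H2-Aa stood at 0.512 and 0.532 of control. H2-Oa counted 14 UMIs in control and 33 at 1 day, or 9.25 and 17.5 CPM, with overlapping intervals. At least 1 UMI of a class II gene, with all cells thinned to 300 UMIs, was found in 83.3% of Kupffer cells in control (81.4 to 85.2), 58.9% at 1 day (57.1 to 60.8) and 55.3% at 7 days (46.7 to 63.7), and without thinning in 92.8%, 77.4% and 73.5%. T cells, which make little class II in mice, gave 33.0%, 28.8% and 7.50% after thinning, at median depths of 639, 495 and 457.5 UMIs beside 783, 556 and 568 in the Kupffer gate.

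Several other measures moved with the Kupffer result. The share of cells that just met the gate's minimum of 2 markers was 10.2% in control, 18% at 1 day and 3.23% at 7 days, and the mitochondrial share of the gate was 14.7%, 20.7% and 2.5%. The ratio at 1 day was as low when 3 markers were required (0.393), and it was 0.374 among cells with no dendritic cell, B cell or monocyte marker, of which there were 154 in control and 590 at 1 day. The hepatocyte list, which covers only part of hepatocyte RNA, reached at most 2.44% of the UMIs of any other gate at 1 day. Cells at 10% or more had been put into the hepatocyte gate by rule, and there the list stood at 210945 CPM. In the Kupffer gate the list stood at 16507 CPM at 1 day and 678 in control. The part of hepatocyte RNA in the Kupffer ratio was not tested. At 7 days the median cell of the Kupffer gate carried 2 neutrophil markers, and without the 5% of cells with the most UMIs the ratio to control was 0.314. The part of doublets in the value at 7 days was not tested.

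**Figure D4:**
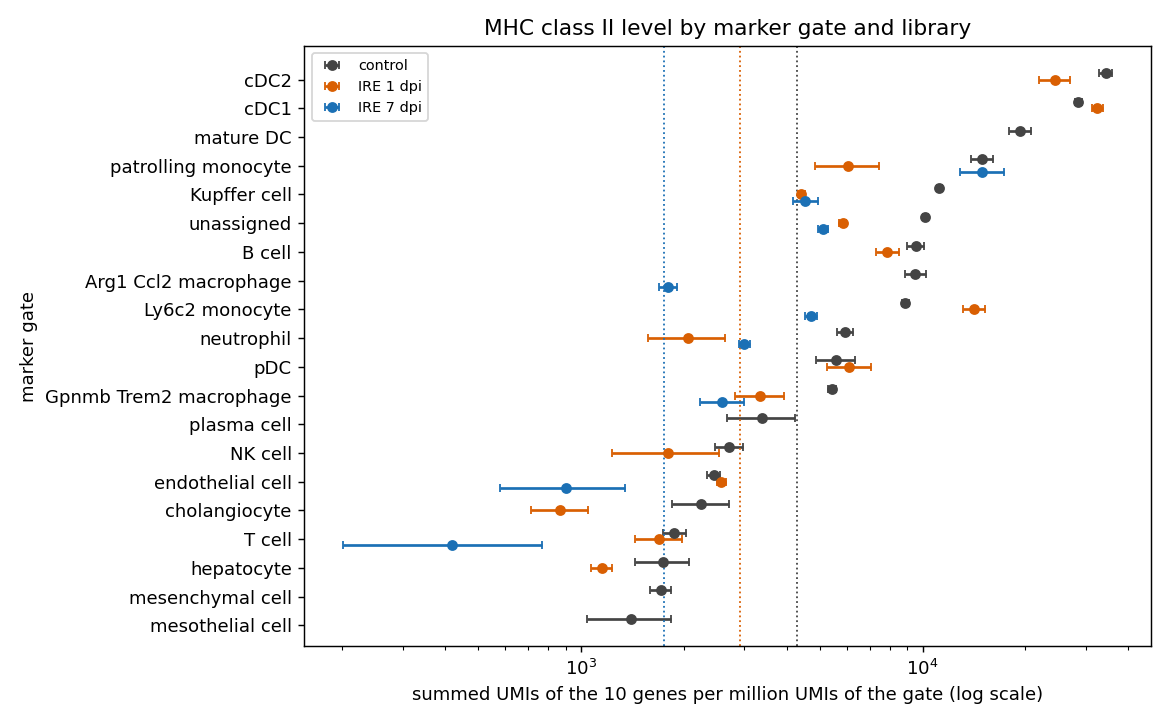
Summed class II level (CPM, log axis) in each gate that enters, by library, with 95% Poisson intervals for counting error and dotted lines at the level of barcodes under 200 genes in each library. The Kupffer gate is lower at both times p.i. than in control, whereas the cDC1 gate is slightly higher and the Ly6c2 monocyte gate clearly higher at 1 day p.i.

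The dendritic cell gates gave values on both sides of control at 1 day p.i. The summed level of cDC1 was 28605 CPM in control (262 cells) and 32474 at 1 day (100 cells), a ratio of 1.14 (1.09 to 1.19). Within it the ratio was 1.37 for Cd74, 1.36 for H2-Aa, 1.46 for H2-DMa, 1.01 for H2-Ab1 and 0.937 for H2-Eb1, none past the threshold. In cDC2 the summed level went from 34371 CPM (92 cells) to 24436 (24 cells), a ratio of 0.711 (0.634 to 0.795), with H2-Ab1 at 0.661 (0.538 to 0.806) and H2-Eb1 at 0.625 (0.484 to 0.796). Of the cDC2 cells 67.4% in control and 62.5% at 1 day just met 2 markers. B cells stood at 0.827 of control (0.750 to 0.911), with Cd74 at 0.995 and H2-Ab1 at 0.630.

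The monocyte gates differed from each other. In the Ly6c2 monocyte gate the summed level was 8905 CPM in control (1472 cells), 14159 at 1 day (91 cells) and 4711 at 7 days p.i. (751 cells), or 1.59 (1.47 to 1.72) and 0.529 (0.504 to 0.555) of control. At 1 day, of the 7 members with 50 UMIs, H2-Aa rose to 2.04 of control (1.74 to 2.39), Cd74 stood at 1.92 (1.62 to 2.26) and Ciita fell on 1 UMI, where 7.19% of 2700 genes rose and 19.6% fell. At 7 days 3 of 7 fell (H2-Ab1, H2-Eb1 and Ciita), where 4.92% of 3639 genes fell. The gate at 1 day was small and mixed, since 61.5% of its cells just met 2 markers, against 34.0% in control and 17.4% at 7 days. Its cells also held more of several other lists than in control. B cell markers stood at 727 against 225 CPM, plasmacytoid markers at 830.5 against 56.8 and cDC2 markers at 809.7 against 391. The Kupffer, endothelial and hepatocyte lists were higher too, at 1640, 1536 and 16298 against 539, 262 and 582. The cDC1 and mature dendritic cell lists were about level, at 539.8 and 41.5 against 531 and 40.0. The neutrophil list was lower, at 228 against 1214. Their part in the result was not tested. Patrolling monocytes, with 77, 29 and 22 cells, stood at 14925 CPM in control, 6053 at 1 day and 14964 at 7 days p.i., or 0.406 (0.321 to 0.507) and 1.00 (0.848 to 1.18) of control. In this gate 68.8%, 55.2% and 50.0% of cells just met 2 markers. The Kupffer and hepatocyte lists stood at 2366 and 15934 CPM at 1 day, against 989.5 and 618 in control. At 7 days the neutrophil and Ly6c2 monocyte lists stood at 5042 and 4148, against 1154 and 2618 in control. The part of this in the ratios was not tested.

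The gates with the most cells at 7 days p.i., those of neutrophils and of Arg1 Ccl2 macrophages, had low class II levels there. The Arg1 Ccl2 macrophage gate, 100 cells in control and 1130 at 7 days, went from 9527 to 1797 CPM, a ratio of 0.189 (0.172 to 0.207). H2-Aa, H2-Ab1, H2-Eb1 and Cd74 went from 2095, 3155, 1960 and 1861 CPM to 397, 549.7, 271 and 458, so that 4 of 5 members with 50 UMIs fell, where 5.49% of 2205 genes fell. The level at 7 days was close to the 1744 CPM of the barcodes under 200 genes. The makeup of the gate moved too. In control 50.0% of its cells just met 2 markers, against 9.56% at 7 days, its own list went from 6483 to 30324 CPM, the Kupffer list from 1664 to 296 and the neutrophil list from 592 to 8733. The part of this in the ratio was not tested. The neutrophil gate stood at 5926 in control (315 cells), 2055 at 1 day (57 cells) and 3006 at 7 days (1977 cells), or 0.347 (0.264 to 0.448) and 0.507 (0.475 to 0.542) of control. There 2 of 6 members fell at 7 days (H2-Ab1 and H2-Eb1), where 3.50% of 3117 genes fell. After thinning, 50.3% of its cells had a class II UMI in control, 42.9% at 1 day and 28.1% at 7 days, at median depths of 608, 489 and 438 UMIs. Neutrophils make little class II in mice, and at 7 days their gate held 6033 CPM of the Arg1 Ccl2 list against 536 in control, and 3512 against 913 of the Gpnmb Trem2 list. The part of cells caught together was not tested.

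The cells that held the class II transcripts changed with the makeup of the libraries. Kupffer cells held 25.8% of the class II UMIs in control, 31.9% at 1 day and 4.92% at 7 days p.i., the last being 2.13% without the 5% of cells with the most UMIs. Neutrophils held 1.98% in control and 25.8% at 7 days, Ly6c2 monocytes 12.9%, 2.62% and 18.2%, and cDC1 9.89%, 10.4% and 2.72%. Cells in no gate, 24.5% of all, held 25.5%, 26.7% and 30.3%. Had each gate kept its control level while taking the share of UMIs it had p.i., the summed level would have been 7275 CPM at 1 day and 8352 at 7 days, or 0.887 and 1.02 of control, beside the measured 0.520 and 0.456. With shares held at those of control, the levels within gates gave 0.586 and 0.448. These sums treat a gate as the same kind of cells in every library and count cells in no gate as a class. The makeup of several gates moved, as given above, and its part in these values was not tested.

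**Figure D5:**
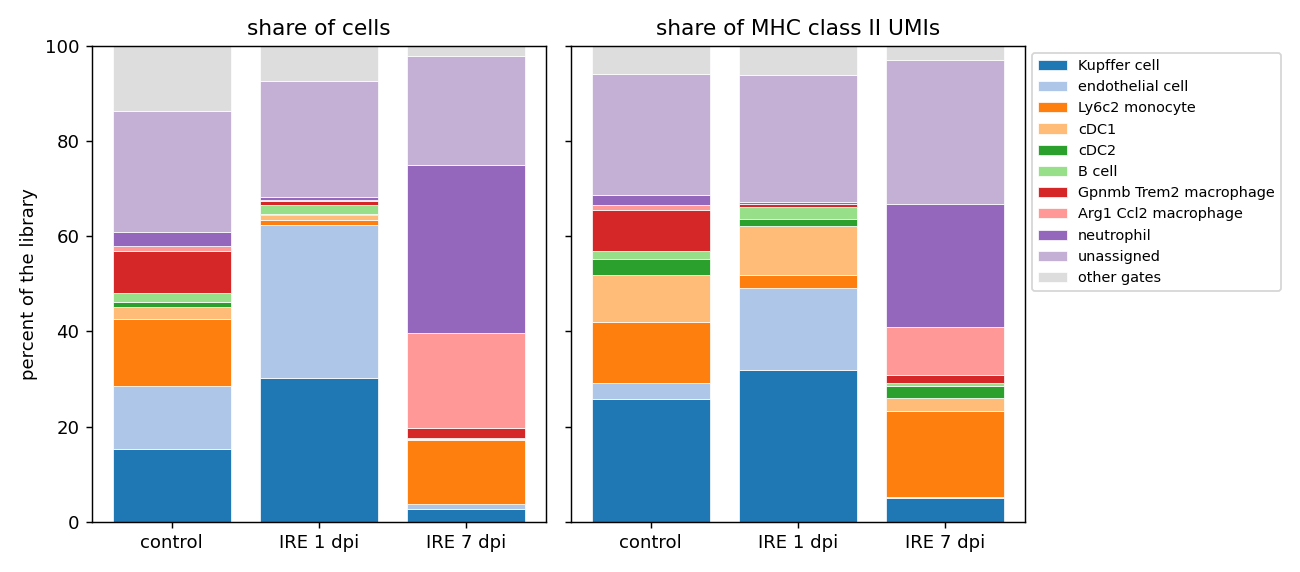
Share of cells and share of class II UMIs (percent) held by each gate in the 3 libraries. Kupffer cells hold the largest named share of class II UMIs in control and at 1 day p.i., and neutrophils do so at 7 days.

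Class II transcripts were spread unevenly over cells. In control 50% of their UMIs lay in 10.6% of cells, at 1 day in 6.95% and at 7 days p.i. in 4.14%. Cells picked for a high class II share hold many of these UMIs by the choice itself. Cells with at least 1% of their UMIs from the 10 genes numbered 2995 in control (28.8% of cells), 930 at 1 day (10.1%) and 543 at 7 days p.i. (9.66%), and held 78.9%, 54.3% and 71.5% of the class II UMIs. In cDC1 they were 96.6% of cells in control and 94.0% at 1 day, and in Kupffer cells 46.9% and 9.27%. After thinning to 300 UMIs, 60.6% of all cells had a class II UMI in control (59.6 to 61.5), 50.8% at 1 day (49.7 to 51.8) and 30.4% at 7 days (29.1 to 31.7), with 209, 298 and 545 shallower cells left out. These shares may include free RNA, since the T cell gate above also gave class II UMIs.

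Other genes of the pathway were counted from 4 lists of 10, by the same threshold over all cells, where 12.2% of all genes rose and 5.86% fell at 1 day p.i. and 8.79% rose and 21.8% fell at 7 days. Of the factors that bind class II promoters or switch on Ciita, 9 could be tested, and none rose or fell at 1 day p.i. At 7 days Rfx5, which binds the X box, fell to 0.319 of control (0.148 to 0.618, 10 UMIs) and Spi1, the myeloid factor PU.1, rose to 2.07 (1.91 to 2.25). Of 8 testable genes of the interferon gamma route, Ifng fell at 1 day to 0.429 (0.282 to 0.637) and Socs1, an inhibitor of cytokine signalling, rose at 7 days to 2.73 (2.03 to 3.69), with no other call against control. Of 10 endosomal genes, Ctss, the protease that trims Cd74, fell at 1 day to 0.431 (0.418 to 0.443) and the tetraspanin Cd63 to 0.119 (0.106 to 0.133), and none rose or fell at 7 days. In the costimulation list Cd274 (PD-L1) fell at 1 day to 0.429 (0.333 to 0.549), 1 call of 9. At 7 days 4 of 10 rose and none fell, namely Cd80 to 8.51 (5.93 to 12.5), Pdcd1lg2 (PD-L2) to 5.43 (3.40 to 8.85), Cd274 to 3.01 (2.55 to 3.57) and Icosl to 2.45 (1.57 to 3.81).

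In the Kupffer gate alone, Irf1, a transcription factor induced by interferon gamma, stood at 232 CPM in control, 117 at 1 day and 80.4 at 7 days p.i. That is 0.507 of control at 1 day (0.426 to 0.601) and 0.347 at 7 days (0.165 to 0.645, 10 UMIs). Irf1 thus fell at 7 days, where 10.7% of 4270 genes in the gate fell. Jak2, a kinase of the interferon gamma receptor, also fell at 7 days, to 0.217 on 1 UMI, with an interval that includes 1 (0.00541 to 1.26). Of 6 testable genes of this route none rose at 1 day or at 7 days, where 9.70% and 7.56% of genes in the gate rose. Jak1 stood at 1.72 at 1 day (1.54 to 1.94) and Ifngr2 at 1.70 at 7 days (1.01 to 2.73), neither past the threshold. None of the promoter factors passed the threshold in this gate, out of 6 testable at 1 day and 3 at 7 days. Of the 10 endosomal genes Cd63 fell to 0.200 at 1 day (0.141 to 0.279), while Cd63 rose to 3.16 (2.24 to 4.38) and Ctsl to 2.42 (2.01 to 2.88) at 7 days. Cd274 fell to 0.372 at 1 day (0.245 to 0.556).

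The genes whose level most resembled the summed class II level were sought over the 41 combinations of gate and library, by Pearson's r of log2(CPM + 10) among 4614 genes with at least 500 UMIs. They were Fgd2 with r of 0.843, Cst3 with 0.839, Rnase6 with 0.776, Gm2a with 0.771, Pld4 with 0.726, Ly86 with 0.725, Rassf4 with 0.723, Pip4k2a with 0.707, Vrk1 with 0.705 and Napsa with 0.703. The combinations share 3 libraries and their free RNA, so that r is a description. Of the members themselves H2-Ab1, H2-Eb1, Cd74 and H2-Aa followed the sum they dominate, with r of 0.962 to 0.992, H2-DMa and H2-DMb1 had 0.820 and 0.781, and H2-DMb2, H2-Oa and H2-Ob had 0.521 to 0.532.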

How the data were processed

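Digested liver tissue of mice was profiled by Drop-seq in 3 libraries (control, 1 day and 7 days after IRE), 1 per condition, each pooled from 3 livers. The authors aligned the reads (STAR 2.5.2a and build hg19 per the submitters' processing notes, although all gene symbols are those of the mouse) and deposited raw UMI counts per gene and barcode. Per the file headers these counts rest on sense reads over coding and untranslated bases with a mapping quality of at least 10. Their stated limit is 200 genes per barcode, but some deposited barcodes fall below it, down to 11 genes. Positions and promoter sequence therefore come from GENCODE M21 and RefSeq by symbol, not from the counts.

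Barcodes with at least 200 genes were kept as cells (25263 of 46331), and UMIs were divided by the total over cells and given as CPM, per 1000000 UMIs. The 10 genes, gates and pathway lists were chosen with earlier results of these data known. A cell with at least 10% of its UMIs from hepatocyte genes was put into the hepatocyte gate, and any other cell into the gate with the most distinct markers, given at least 2 and no tie, of 18 lists of 10 (Ighd and Chil3 were not used here). Tied cells, 11.4% of all, stayed in no gate. Gates are not clusters, and doublets were kept and no caller was run. Sums have exact Poisson, shares Clopper-Pearson and ratios conditional binomial 95% intervals. With 1 library per condition no test was made, and a change means a ratio of at least 2 or at most 0.5 with 50 UMIs over both libraries. Genes were named by rule, as all members, every gene of the pathway lists that passed or that a sentence needs, H2-Eb2, and the 10 genes most like the sum. A result for 1 gene of the pathway lists is not reported here. The spacing search in promoters and the alternatives without shared barcodes, without mitochondrial UMIs in the Kupffer gate and without cells with other markers were chosen after the data had been seen. The steps were tested on simulated counts. Python 3.11.15, NumPy 2.4.6, SciPy 1.17.1, pandas 2.3.3, matplotlib 3.10.9 and Biopython 1.88 were used.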

Additional observations from a re-analysis of the deposited data

Results flagged for a closer look

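In 3 gates the summed class II level at 1 day p.i. lay above control with an interval that did not reach below 1, while that of the Kupffer gate lay at 0.394 of control, and these differences between gates were not tested. The cDC1 gate stood at 1.14 of control (1.09 to 1.19), the Ly6c2 monocyte gate at 1.59 (1.47 to 1.72) and the endothelial gate at 1.05 (1.00 to 1.11). The endothelial level was below that of barcodes under 200 genes in both libraries.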

How the results depend on the processing

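No paired analysis was possible because each condition is 1 library and no test was made. The summed level at 1 day against control was 0.528 without mitochondrial UMIs, 0.555 without these and hepatocyte UMIs, 0.551 with median-of-ratios size factors, 0.494 without Cd74, 0.528 without the 5% of cells with the most UMIs and 0.531 without shared barcodes. At 7 days against control it was 0.415 with every barcode, 0.493 at 300 genes, 0.379 without mitochondrial UMIs, 0.378 without these and hepatocyte UMIs, 0.433 with size factors, 0.436 without Cd74 and 0.445 without the top 5%. At 7 days against 1 day it was 0.794, 0.95, 0.716, 0.681 and 0.786 under the first 5 of these, 0.842 without the top 5% and 0.856 without shared barcodes. At a threshold of 1.5-fold, 6 members fell at 1 day and 10 at 7 days against control, where 13.7% and 33.6% of all genes fell. The level of the Kupffer gate without mitochondrial UMIs was 0.424 at 1 day and 0.354 at 7 days against control, and 0.835 at 7 days against 1 day, which reads below 1 where the value with all UMIs was 1.03. Without the top 5% it was 0.314 at 7 days against control and 0.798 against 1 day. Without cells with other markers it was 0.374 at 1 day and 0.366 at 7 days. The Kupffer share of class II UMIs was 24.0% in control and 27.8% at 1 day with 3 markers, 32.5% at 1 day with a hepatocyte gate at 20%, 29.8%, 34.8% and 5.95% at 300 genes, and 21.9%, 31.1% and 2.13% without the top 5%. The share of all cells with a class II UMI was 74.9%, 67.8% and 39.9% without thinning and 65.8%, 59.7% and 36.6% at 400 UMIs. Further values that changed side were H2-Aa at 7 days against 1 day, 1.01 at 300 genes, and cells in no gate at 7 days against 1 day, 1.05 with 3 markers. The causes were not tested. Over all alternatives, 152 values of single members stayed within their interval and 57 moved beyond it, as did 83 and 19 levels of other gates, 85 and 79 of their shares of class II UMIs and 32 and 56 of their shares of cells. Depth limits H2-Oa, H2-Ob and Ciita most, at 15 to 28 UMIs at 7 days.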

Other observations

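Among the smaller gates is the Gpnmb Trem2 gate, named for markers of lipid-handling macrophages. It stood at 5415 CPM of summed class II in control (921 cells), 3340 at 1 day p.i. (81 cells) and 2586 at 7 days (111 cells). These levels are 0.617 (0.521 to 0.725) and 0.478 (0.410 to 0.554) of control. At 1 day 69.1% of the cells of this gate just met 2 markers, against 18.5% in control, its own list stood at 7756 against 15601 CPM and the Kupffer list at 1999 against 811. At 7 days the neutrophil list stood at 6367 CPM, against 709 in control. The part of this in the ratios was not tested. Plasmacytoid dendritic cells stood at 5565 in control and 6103 at 1 day, a ratio of 1.10 (0.898 to 1.34).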
